A study of Mus musculus with 9 samples.

Results

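Aldehyde dehydrogenases and aldose reductases are enzymes that remove reactive aldehydes, and 8 of their mouse genes were examined here: Aldh1a1, Aldh2, Aldh3a1, Aldh3a2, Aldh3b1, Aldh9a1, Akr1b3 and Akr1b8. They were taken by name, through the array probe sets that the platform annotation assigns to 1 gene only. For Akr1b3 no such probe set was used, which left 7 genes and 12 probe sets out of 18193 genes and 45037 probe sets. Where a gene had several, the brightest over all 9 arrays stands for it here, and the rest are given beside it.

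All mice were hairless, from a line bred for 5 generations to SKH1, and homozygous for a floxed Alox12b allele (Alox12b fl/fl, genotype p/p). The 5 mice called inactivated here (+/cre) also carried a tamoxifen-dependent recombinase, Cre-ERT2, under the keratin K14 promoter, which is active in basal keratinocytes. Their 4 littermates without Cre (+/+), called controls, had the same 3 intraperitoneal doses of 1 mg tamoxifen in oil at an age of 8 weeks. Epidermis scratched from frozen skin 6 days later was hybridised to Affymetrix whole-genome mouse arrays, 1 array per mouse. Every inactivated mouse and no control carried Cre, so effects of Cre itself and of Alox12b inactivation cannot be told apart.

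Lipoxygenases such as Alox12b oxidise polyunsaturated fatty acids, and the breakdown of oxidised lipids releases aldehydes that bind to protein and DNA. Aldehyde dehydrogenases oxidise aldehydes to acids with NAD or NADP, while aldo-keto reductases reduce them to alcohols with NADPH. In skin the family is best known for Aldh3a2, the fatty aldehyde dehydrogenase whose loss in people causes Sjögren-Larsson syndrome, an ichthyosis, and for the dehydrogenases that make retinoic acid from retinaldehyde.

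Values are log2 levels as the authors deposited them, with array medians of 4.34 to 4.42. Differences are inactivated minus control ± SE from limma, with p-values adjusted over all probe sets by the method of Benjamini and Hochberg and called at 0.05. Keratinocyte markers were present on every array, with a mean log2 level over 9 measured genes of 11.93 to 12.20 in the inactivated group and 12.42 to 12.54 in the controls. Of the 9, Krt14 rose by 0.47, Krt15 fell by 3.22, Trp63 fell by 0.35 and 6 did not pass. Without Krt15, left out after its value was seen, the mean was 12.39 to 12.56 in the inactivated group and 12.51 to 12.59 in the controls. Alox12b itself was read at 9.50 to 10.17 in the inactivated group and 9.19 to 9.40 in the controls (0.61 ± 0.14, adjusted p = 0.00694). The position of its probe set relative to the floxed part is not given in the sources used here, so this value checks nothing about the deletion.

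The Aldh3a1 and Aldh1a1 transcripts fell and the Akr1b8 transcript rose, each by 3.12- to 4.02-fold. Aldh9a1 rose slightly, with a call at the edge of the threshold (adjusted p = 0.0495 from limma) that was lost under 12 of 20 alternatives. Of the 7 genes, 2 were called higher, 2 lower and 3 did not pass. Over all genes 34.4% were called, 15.5% higher and 18.9% lower. No overlap between the groups was seen for 4 of the 7 genes (Aldh3a1, Aldh1a1, Aldh3a2 and Akr1b8), against 31.6% of all genes. With 7 genes chosen by name, these counts say nothing particular about the family. The median difference was -0.25 over the 7 genes and 0.03 over all genes.

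Promoters are shown for Akr1b8, which rose, and Aldh1a1, which fell. In the RefSeq promoter table used here (build GRCm38.p6) 5 of the 8 genes were matched (Akr1b8, Aldh1a1, Aldh3a2, Aldh3b1 and Aldh9a1), and the 250 bases before the start are printed 5′ to 3′ for Akr1b8 and for both starts of Aldh1a1. Capitals mark matches to 3 motifs searched on both strands: TGACNNNGC, the core bound by the oxidative stress factor Nrf2, GCGTG, the core bound by the aryl hydrocarbon receptor Ahr, and TGANTCA, bound by AP-1.
Akr1b8, chr6:34353896-34354145, plus strand: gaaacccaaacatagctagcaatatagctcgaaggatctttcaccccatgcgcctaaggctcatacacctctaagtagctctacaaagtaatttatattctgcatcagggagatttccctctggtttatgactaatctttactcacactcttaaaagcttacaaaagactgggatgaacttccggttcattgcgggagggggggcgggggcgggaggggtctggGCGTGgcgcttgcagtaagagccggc
Aldh1a1 upstream start, chr19:20492333-20492582, plus strand: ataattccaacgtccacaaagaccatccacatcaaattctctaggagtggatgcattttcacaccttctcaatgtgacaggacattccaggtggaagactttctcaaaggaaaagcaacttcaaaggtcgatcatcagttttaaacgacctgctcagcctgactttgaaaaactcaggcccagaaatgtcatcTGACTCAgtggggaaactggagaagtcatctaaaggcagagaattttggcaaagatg
Aldh1a1 downstream start, chr19:20601718-20601967, plus strand: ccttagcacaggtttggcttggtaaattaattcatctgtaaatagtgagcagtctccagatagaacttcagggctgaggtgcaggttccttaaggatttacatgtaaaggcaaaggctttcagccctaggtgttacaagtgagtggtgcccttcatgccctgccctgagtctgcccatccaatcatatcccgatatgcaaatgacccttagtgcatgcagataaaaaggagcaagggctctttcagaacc
The Akr1b8 stretch holds GCGTG with its first base 26 bases before the start, and neither of the other motifs. The upstream Aldh1a1 stretch holds TGANTCA 57 bases before the start, in letters that read as the motif on either strand, and the downstream stretch holds none of the motifs. Among the other genes, Aldh3a2 has GCGTG 117 bases before its start, Aldh9a1 has TGACNNNGC at 87 bases and GCGTG on the opposite strand at 40 and 12 bases, and Aldh3b1 has no match. Of all 32851 promoters of this length, 10.2% hold TGACNNNGC, 28.2% hold GCGTG and 6.75% hold TGANTCA. A match of letters is a description and does not show that a factor binds there.

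Aldh3a1, which oxidises aromatic and medium-chain aldehydes and is abundant in the cornea, had log2 levels of 9.32, 9.30, 9.20 and 9.36 on control arrays 1 to 4. On inactivated arrays 1 to 5 it was at 7.62, 6.87, 7.21, 7.66 and 7.92. Every inactivated array lay below every control, with a gap of 1.27 between the groups. The means were 9.29 ± 0.07 (SD, n = 4) in the controls and 7.46 ± 0.42 (SD, n = 5) in the inactivated group. Aldh3a1 thus fell by 1.84 ± 0.18, or 3.58-fold lower (adjusted p = 5.65e-05), more in absolute size than 98.6% of all genes.

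Aldh3a2, the fatty aldehyde dehydrogenase, is the direct neighbour of Aldh3a1 on chromosome 11. Its control levels were 7.33, 7.49, 7.31 and 7.22. Its inactivated levels were 7.17, 6.21, 6.25, 6.92 and 7.17, so that arrays 1 and 5 lay just under the lowest control and arrays 2 and 3 far below it. The difference was -0.59 ± 0.21 and did not pass (adjusted p = 0.0563; 95% interval of this single comparison -1.06 to -0.13). Without inactivated replicate 1 or 5 the adjusted p was 0.0298 or 0.0289, and it passed under 4 of the other alternatives as well. The within-array difference Aldh3a1 minus Aldh3a2 was 1.96 ± 0.14 (SD, n = 4) in the controls and 0.71 ± 0.19 (SD, n = 5) in the inactivated group. That is a change of -1.25 (two-sided exact permutation p = 0.00794, the smallest that 126 splits can give, 0.0238 adjusted over 3 pairs of relatives), so the 2 neighbours changed unequally.

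Aldh1a1, a cytosolic enzyme that makes retinoic acid from retinaldehyde, was at 8.03, 7.80, 7.61 and 7.79 on the controls. On the inactivated arrays it was at 6.56, 4.70, 6.17, 6.26 and 7.12. All inactivated arrays were below the controls, and replicate 2 lay far below the other inactivated arrays. Aldh1a1 fell from 7.81 ± 0.17 (SD, n = 4) to 6.16 ± 0.90 (SD, n = 5), by 1.64 ± 0.38 (adjusted p = 0.00849), and the difference was -1.28 without inactivated replicate 2 (adjusted p = 0.00131). The spread in the inactivated group was 5.18 times that of the controls.

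Aldh2, the mitochondrial enzyme that clears acetaldehyde, is a close relative of Aldh1a1 and was read by 5 probe sets. On its brightest probe set the controls were at 8.76, 8.58, 8.81 and 8.72 and the inactivated arrays at 8.58, 8.18, 8.40, 8.58 and 8.58. The groups touched, since 4 of the 9 arrays, control replicate 2 among them, carried the same deposited value. The difference was -0.25 ± 0.10 (adjusted p = 0.0784; interval -0.47 to -0.04). The other Aldh2 probe sets gave -0.23, -0.18, -0.18 and 0.12 with adjusted p of 0.194 to 0.289, so none of the 5 passed. The last of these is the dimmest of the 5. Aldh1a1 minus Aldh2 was -0.91 ± 0.21 (SD, n = 4) in the controls and -2.30 ± 0.74 (SD, n = 5) in the inactivated group, a change of -1.39 (two-sided exact permutation p = 0.0159, adjusted p = 0.0238). Without any 1 of the controls, the changes in Aldh1a1 minus Aldh2 and Aldh3a1 minus Aldh3a2 each had an adjusted p of 0.0536 by the same exact test. The smallest p that the 56 splits of 5 against 3 arrays allow is 0.0179 before adjustment. For any control left out, at most 1 of these pairs reached it. The changes themselves were -1.49 to -1.33 for Aldh1a1 minus Aldh2 and -1.29 to -1.18 for Aldh3a1 minus Aldh3a2.

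Aldh3b1, a membrane-bound enzyme for medium- and long-chain aldehydes, had a level near the middle of all probe sets. Its controls were at 4.75, 4.48, 4.55 and 4.46 and its inactivated arrays at 4.52, 4.87, 4.49, 4.47 and 4.36. The groups overlapped, and the difference was -0.02 ± 0.11 (adjusted p = 0.923; interval -0.26 to 0.22), with a sign that turned under 8 of 20 alternatives. Aldh3b1 minus Aldh3a2 changed by 0.58 (two-sided exact permutation p = 0.143, adjusted p = 0.143), which did not pass.

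Aldh9a1 oxidises trimethylaminobutyraldehyde, a step of carnitine synthesis. Its controls were at 8.69, 8.79, 8.89 and 8.84 and its inactivated arrays at 8.98, 9.10, 8.88, 9.07 and 9.29. Only inactivated replicate 3 fell within the control range. Aldh9a1 rose by 0.26 ± 0.09, or 1.20-fold (adjusted p = 0.0495; interval 0.06 to 0.46). The second Aldh9a1 probe set gave 0.22 ± 0.09 and did not pass (adjusted p = 0.0787). The call sat at the threshold and was lost when any array other than inactivated replicate 3 was left out, with adjusted p of up to 0.122, and with the sex of the mice as a covariate (adjusted p = 0.0645).

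Akr1b8, an aldo-keto reductase of the aldose reductase subfamily that reduces lipid-derived aldehydes, was at 7.44, 6.96, 6.56 and 6.95 on the controls. On the inactivated arrays it was at 9.47, 8.78, 9.10, 8.93 and 8.64. Every inactivated array lay above every control, with a gap of 1.20. Akr1b8 rose from 6.98 ± 0.36 (SD, n = 4) to 8.98 ± 0.32 (SD, n = 5), by 2.01 ± 0.19 or 4.02-fold (adjusted p = 4.63e-05), more in absolute size than 98.9% of all genes. Akr1b8 is read by a single probe set, as are Aldh3a1, Aldh1a1, Aldh3a2 and Aldh3b1. Akr1b10, a neighbour and close relative of Akr1b8, did not pass on any of its 3 probe sets, with 0.10 ± 0.17, 0.20 ± 0.12 and 0.12 ± 0.08. Near-identical transcripts can share probes, and the probe sequences were not used here.

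**Figure D1:**
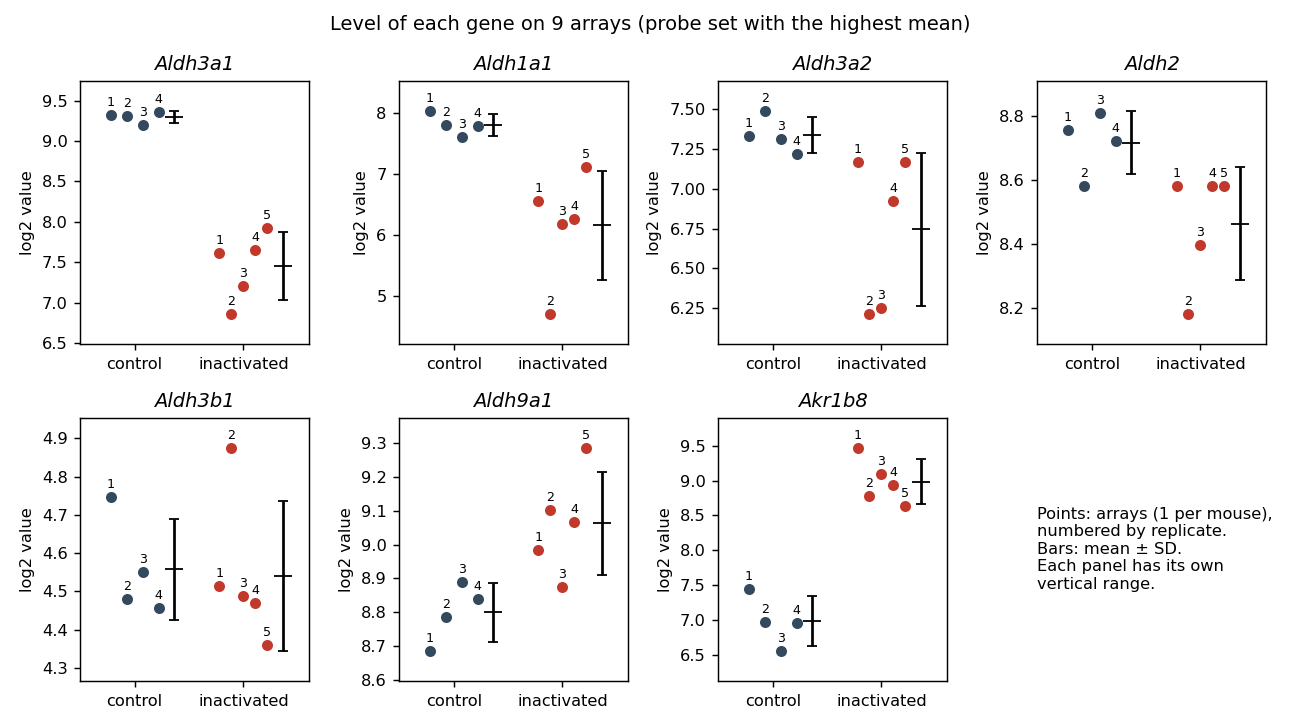
Log2 level (vertical axis, own range in each panel) of 7 genes on 4 control and 5 inactivated arrays, with each point 1 array numbered by replicate and bars for mean ± SD. The groups are apart for Aldh3a1, Aldh1a1 and Akr1b8, are only 0.05 apart for Aldh3a2, and touch or overlap for Aldh2, Aldh3b1 and Aldh9a1.

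**Figure D2:**
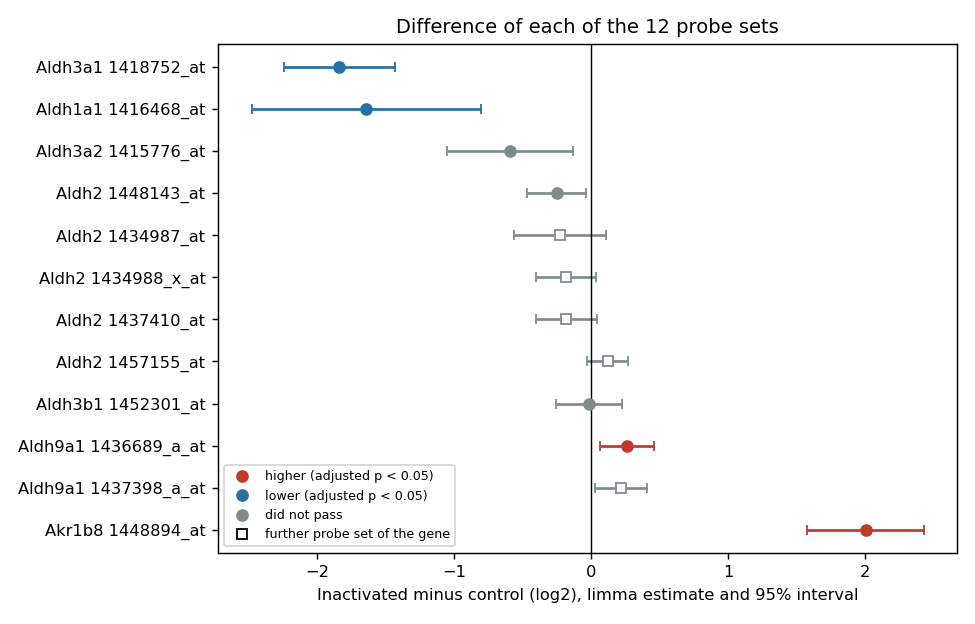
Difference, inactivated minus control in log2 units (horizontal axis), of all 12 probe sets, as the limma estimate with its 95% interval for 5 and 4 arrays; filled circles are the probe sets that represent a gene. Akr1b8 lies at 2.01, Aldh3a1 at -1.84 and Aldh1a1 at -1.64, while 4 of the 5 Aldh2 probe sets lie between -0.25 and -0.18 and 1 at 0.12.

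Among the inactivated arrays, replicate 2 had the lowest level of 4 of the 7 genes, Aldh3a1, Aldh1a1, Aldh3a2 and Aldh2, and the highest of Aldh3b1. Inactivated replicate 5 had the highest levels of Aldh3a1, Aldh1a1 and Aldh9a1 and the lowest of Akr1b8. Scratched epidermis can carry dermal and gland cells, and in whole tissue fewer cells of a type and less RNA per cell cannot be told apart. Of 10 fibroblast markers, 9 fell and 1 rose, and their mean log2 level was 8.96 to 9.63 on the inactivated arrays and 9.87 to 10.40 on the controls. Of 8 measured sebaceous gland markers, 2 fell, 1 rose and 5 did not pass, with a mean level of 7.02 to 8.27 on the inactivated arrays and 7.74 to 8.54 on the controls. Both lists were lowest on inactivated replicate 2, at 8.96 and 7.02, and next lowest on replicate 3, at 9.07 and 7.37, the arrays on which Aldh3a2 was also lowest. All of these markers had mean levels above 2.71, the first quartile of all probe sets. The mean of T cell markers was also lower without overlap, at 4.99 to 5.25 against 5.64 to 5.95 in the controls. Of the 6 measured, 3 fell, 1 rose and 2 did not pass. The mean of melanocyte markers was higher, at 5.10 to 6.26 against 4.19 to 4.41, and 6 of 7 rose. Macrophage markers (5 of 9 fell, 1 rose) and Langerhans cell markers (4 of 7 fell, 1 rose) had means that overlapped between the groups. Muscle markers stood at 6.76 on inactivated replicate 4 and at 4.11 to 4.58 on the other 8 arrays. Adipocyte markers also stood apart on inactivated replicate 4, at 7.54 against 4.64 to 6.04 on the other 8, with Adipoq at 8.30 and Fabp4 at 10.46 there. The part of these cells in the differences was not tested. Without inactivated replicate 2, Aldh3a1 differed by -1.69, Akr1b8 by 2.06, Aldh1a1 by -1.28 and Aldh3a2 by -0.46. Without replicate 4 these differences were -1.89, 2.02, -1.67 and -0.64. Without replicate 3, Aldh3a2 differed by -0.47. Each of these omissions leaves every inactivated array below every control in fibroblast markers, so they do not test the part of these cells.

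**Figure D3:**
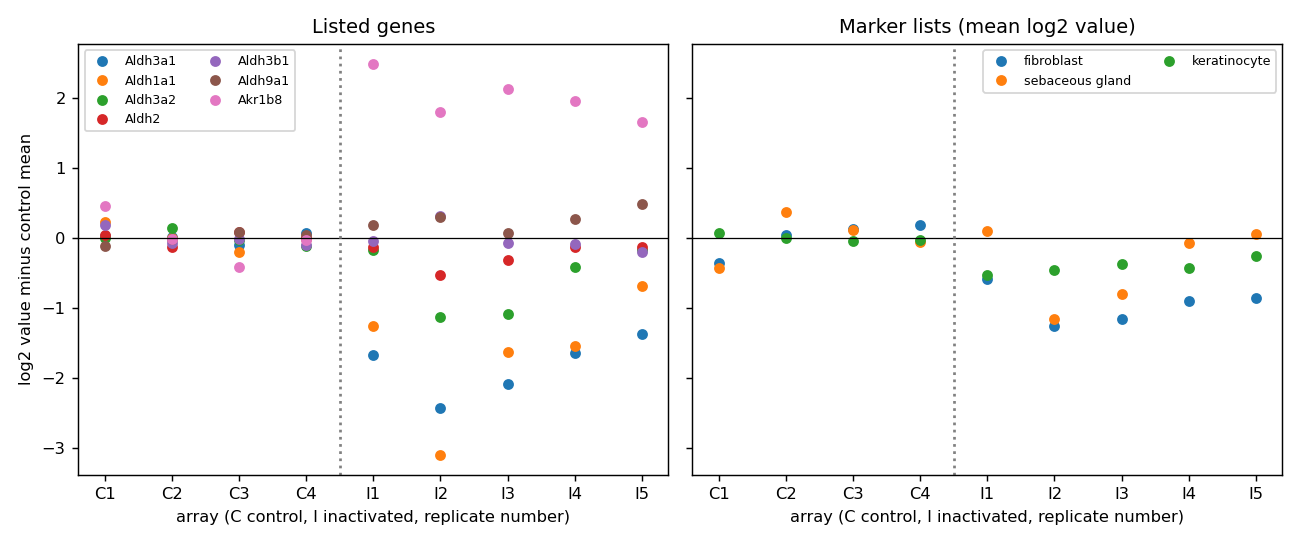
Log2 level minus the control mean (vertical axis) on each array (horizontal axis), for the 7 genes on the left and for the mean of the fibroblast, sebaceous gland and keratinocyte marker lists on the right. Aldh3a1, Aldh1a1, Aldh3a2, fibroblast markers and sebaceous gland markers are all lowest on inactivated replicate 2. Endothelium, macrophage, neutrophil, mast cell and adipocyte markers, not shown, were lowest on that array too.

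The 2 genes with the closest pattern over the 9 arrays, by Pearson r, are given for each gene as a description. They are the highest of 16341 genes searched, so a high r follows from the search itself. For genes that differ between the groups, r also holds the group difference. Aldh3b1 and its matches did not pass. With the group means removed, r of the matches ran from 0.89 to 0.98. Aldh3a1 was most like Scin (r = 0.997) and Gsn (0.994), which encode actin-severing proteins and fell by 2.18 and 1.17. Akr1b8 was most like Sh2d5 (0.992) and Hbs1l (0.992), Aldh1a1 like Mylk (0.986) and Pip4k2a (0.986), and Aldh3a2 like Rarres1 (0.981) and Acacb (0.978). Aldh2 was most like Bche (0.978) and Fcgrt (0.978), Aldh9a1 like Ube2d3 (0.945) and Romo1 (0.939), and Aldh3b1 like Ifnb1 (0.966) and Cntrob (0.920).

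The rest of the aldehyde dehydrogenase family rose in 6 of 14 measured genes, fell in 2 and did not pass in 6, with a median of 0.05. Aldh1l1 and Aldh1l2, the cytosolic and mitochondrial formyltetrahydrofolate dehydrogenases, rose by 1.79 ± 0.16 (adjusted p = 3.55e-05) and 1.22 ± 0.13, although the second Aldh1l1 probe set gave 0.24 and did not pass. Aldh5a1, which acts in the breakdown of the transmitter GABA, rose by 0.78 ± 0.10. Aldh3b2, a lipid-droplet relative of Aldh3b1, rose by 0.56 ± 0.07. Aldh4a1, of proline breakdown, fell by 0.53 ± 0.08, and Aldh6a1, of valine breakdown, fell by 0.49 ± 0.14, a call lost without any of 7 single arrays. Aldh1a3, singled out after its values were seen because it makes retinoic acid as Aldh1a1 does, rose by 1.47 ± 0.25 (adjusted p = 0.0016), and its other 2 probe sets by 0.62 and 0.92. Its control mean of 3.70 was below the median of all probe sets (4.40). The relatives Aldh1a2 (0.12) and Aldh1a7 (-0.27), with low control means of 2.34 and 2.77, did not pass.

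The other aldo-keto reductases rose in 3 of 14 genes, fell in 1 and did not pass in 10 (median 0.09). Akr1d1, a reductase of steroids and bile acid precursors, rose by 3.50 ± 0.22 and its second probe set by 3.55. Their control means were 2.76 and 2.69, close to the first quartile of all probe sets (2.71), and were not shown to be above background, so no fold is given. Akr1c18, which inactivates progesterone, rose by 1.34 ± 0.14. Akr1e1 rose by 0.93 ± 0.25, a call lost without control replicate 2, 3 or 4 (adjusted p up to 0.0566), and its second probe set gave 0.30 and did not pass. Akr1cl fell by 1.08 ± 0.10.

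Alcohol dehydrogenases and carbonyl reductases, which interconvert alcohols and carbonyls, fell in 6 of 14 genes, rose in 3 and did not pass in 5 (median -0.17). Adh6a fell by 3.59 ± 0.34 and Adh1, an alcohol and retinol dehydrogenase, by 1.99 ± 0.20. The retinal reductase Dhrs4 fell by 0.67 ± 0.10. Dcxr, a reductase of dicarbonyls and xylulose, rose by 1.51 ± 0.16 and the carbonyl reductase Cbr1 by 0.34 ± 0.07.

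Of 7 polyol and glyoxalase genes, 1 rose, 3 fell and 3 did not pass (median -0.07). Glo1, which detoxifies methylglyoxal, rose by 0.74 ± 0.14, and of its other 3 probe sets 2 rose and 1 gave -0.14. Glod4 fell by 0.32 ± 0.07. Haghl fell by 0.44 ± 0.14 and Park7 by 0.23 ± 0.08, calls that were lost without 4 and without 8 of the single arrays. Of the other 3 Haghl probe sets 2 fell and 1 gave 0.04, and the second Park7 probe set gave -0.22 and did not pass. The list for fatty aldehyde sources and handling also holds genes of other lipid steps. Of its 13 genes, 4 rose, 3 fell and 6 did not pass (median -0.01). Those that rose were Sdr9c7, Cyp4f39, Cyp4f18 and Adhfe1, the last with a control mean of 2.41, below the first quartile of all probe sets. The Cyp4f18 control mean of 2.92 was close to that quartile (2.71). The second Cyp4f18 probe set (0.22) and the other Adhfe1 probe sets (0.27 and 0.17) did not pass. Far1, Far2, Sgpl1, Hacl1, Phyh and Agps did not pass. Sdr9c7, which oxidises the epoxy-hydroxy group of barrier ceramides, rose by 1.15 ± 0.09 and the fatty acid hydroxylase Cyp4f39 by 0.61 ± 0.06. Agmo, which cleaves ether lipids and thereby releases a fatty aldehyde, fell by 1.24 ± 0.25. Tmem189, a desaturase of ether lipids, fell by 0.75 ± 0.11, but of its 3 probe sets 1 rose by 0.49.

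Genes around Nrf2, a factor that induces enzymes against electrophiles, rose in 6 of 16 cases, fell in 2 and did not pass in 8 (median 0.15). Nqo1 (0.28), Hmox1 (-0.06), Txnrd1 (-0.22) and Gclc (0.13) were among the 8 that did not pass. Gsta4, a glutathione transferase for hydroxynonenal, rose by 4.32 ± 0.34 (20.0-fold; adjusted p = 1.52e-05), the cystine transporter Slc7a11 by 3.52 ± 0.21 and the glutathione synthesis subunit Gclm by 0.69 ± 0.09. The second Gclm probe set gave 0.33 and did not pass (adjusted p = 0.0937). The Slc7a11 control mean of 3.69 was below the median of all probe sets (4.40). Its second probe set rose by 3.86 from a control mean of 2.66, below the first quartile (2.71). Gstm1 fell by 1.43 ± 0.08, as did Keap1, the inhibitor of Nrf2, by 0.40 ± 0.09. Of the other 3 Gstm1 probe sets 2 fell and 1 gave -0.14, and the second Keap1 probe set fell by 1.15. Of the 8 measured genes around Ahr, a sensor of aromatic ligands, 1 rose, 2 fell and 5 did not pass (median 0.08). Ahr fell by 1.18 ± 0.08 and its repressor Ahrr by 0.79 ± 0.16, while Tiparp, which acts back on Ahr, rose by 1.33 ± 0.20. The second Ahr probe set fell by 0.39. Cyp1a1 (-0.89 ± 0.52) was among the 5 that did not pass. None of these counts was tested against other genes.

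**Figure D4:**
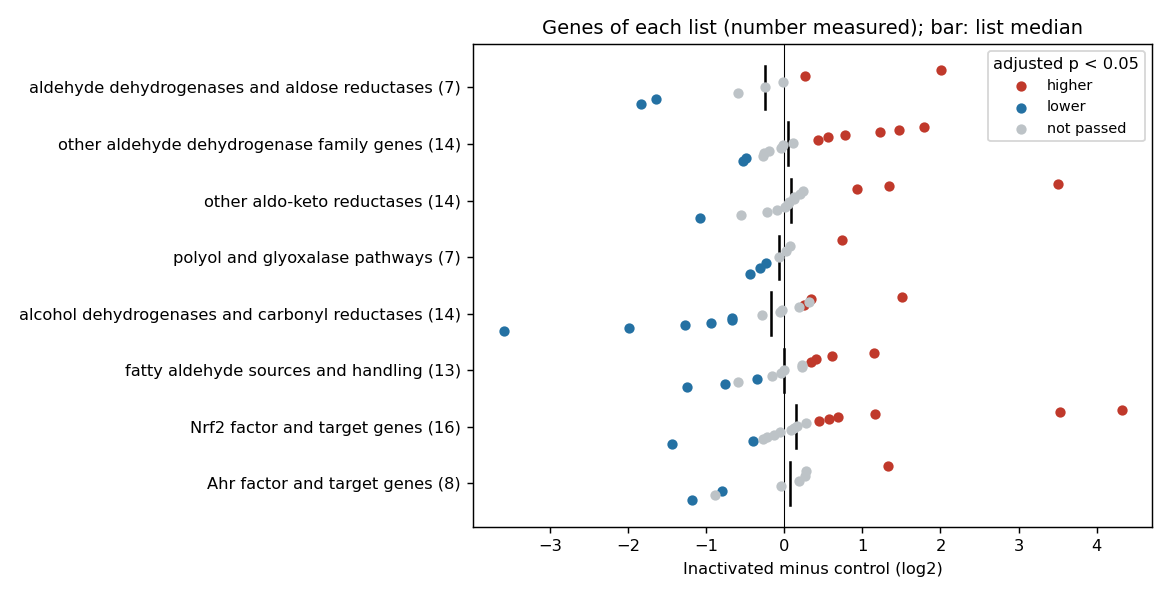
Difference, inactivated minus control in log2 units (horizontal axis), of each measured gene (points, coloured by call at adjusted p 0.05) in 8 gene lists (rows, number measured in brackets), with a bar at the list median. Points lie on both sides of 0 in every list, and the medians lie between -0.25 and 0.15.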

How the data were processed

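RNA from epidermis of 9 mice was measured on arrays after 3′-primed labelling, per the labels' protocols. The authors deposited log2 values, in a table of 45037 probe sets by 9 arrays. The submitters' processing notes name the R package affy, with no version. How background was corrected and probes summarised is not given in the sources used here, and the log base was inferred from the range of values. The platform annotation gave 34945 probe sets 1 symbol and 932 several, and 9160 were not listed. For each of 18193 genes the brightest probe set over all arrays was used. Groups were compared with limma 3.58.1 under R 4.3.3 (two-sided moderated test of lmFit and eBayes) on all probe sets, without a filter or covariates. Within-array differences between relatives were compared by exact permutation over 126 splits. The planned pair of Akr1b8 and Akr1b3 was not run, since no probe set was used for Akr1b3. The fit was also run on simulated arrays with independent values, equal spread in both groups and few changed probe sets. The real arrays had unequal spread for some genes and many calls, so that run is not used as support here. The number of arrays limits the precision. The members and lists were chosen with earlier results of these data known. The rule for named genes takes all members, up to 4 genes per list with the lowest adjusted p among those that passed, up to 2 that passed in the less frequent direction, and 2 genes of most similar pattern per member.

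Cell type markers were fixed lists, of which the keratinocyte, fibroblast and sebaceous gland lists are given in the report. Of the others, adipocyte markers rose in 0 and fell in 0 of 6, endothelium in 1 and 1 of 8, muscle in 2 and 2 of 8, macrophage in 1 and 5 of 9, neutrophil in 1 and 1 of 6, T cell in 1 and 3 of 6, Langerhans cell in 1 and 4 of 7, mast cell in 2 and 0 of 7 and melanocyte in 6 and 0 of 7. Alternatives were quantile normalisation, array medians, cyclic loess, a filter at the median level, a trended robust prior, the replicate number as a block, sex as a covariate, array weights, the mean of a gene's probe sets, removal of probe sets ending in _x_at or _s_at, a threshold of 0.01 and the omission of each array in turn.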

Additional observations from a re-analysis of the deposited data

How the results depend on the processing

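Under all 20 alternatives Aldh3a1 (-1.96 to -1.69), Aldh1a1 (-1.88 to -1.28) and Akr1b8 (1.87 to 2.16) kept their direction and their call, and Aldh2 (-0.30 to -0.14) did not pass. These ranges include the omission of each array. Aldh9a1 lost its call with the replicate block (0.21), with sex as a covariate (0.28), without _x_at and _s_at probe sets (0.26) and at a threshold of 0.01 (0.26), and ranged from 0.21 to 0.31 when single arrays were left out. In these cases 1 member gene was higher, and with single arrays left out the count was 1 or 2. Aldh3a2 passed with the filter at the median level (-0.59), with the trended robust prior (-0.59), with the replicate block (-0.70) and with array weights (-0.53), and ranged from -0.70 to -0.46 when single arrays were left out. Aldh3b1, which never passed, turned to 0.0403 with quantile normalisation, 0.0266 with array medians, 0.00582 with cyclic loess, 0.0284 with the replicate block and 0.00416 with sex as a covariate. It turned to 0.000603 without inactivated replicate 4, 0.0284 without inactivated replicate 5 and 0.0458 without control replicate 1, in a range of -0.10 to 0.05 over single arrays. The causes of these changes were not tested. At a threshold of 0.01, 1526 genes were higher and 2179 lower, and 2 member genes were lower. Without any 1 control the pairs Aldh3a1 minus Aldh3a2 and Aldh1a1 minus Aldh2 had an adjusted p of 0.0536 over 56 splits. With single arrays left out they ranged from -1.31 to -1.18 and from -1.60 to -1.10. Whether the replicate numbers pair the mice was not settled. Deviations of same-numbered arrays correlated from -0.27 to 0.08, but same-numbered mice of replicates 1, 3 and 4 differed in sex. These correlations therefore cannot exclude a shared litter or batch. The replicate block used 8 arrays. All genes shifted by a median of 0.02 to 0.07 under the scalings tried. Array values carry no read depth, and signal over background was not measured.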

Other observations

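The labels give no sex, and Xist and Y-linked probe sets marked 3 of the 5 inactivated mice and 1 of the 4 controls as female and the others as male. Akr1b8 differed by 2.30 among the males and by 1.45 among the females, Aldh3a1 by -2.04 and -1.72, Aldh1a1 by -2.10 and -1.51, and Aldh9a1 by 0.20 and 0.39. The female values rest on 1 control. Aldh3b1 differed by 0.20 among the males and by -0.31 among the females. The male minus female difference in group effect was 0.51 for Aldh3b1 (adjusted p = 0.881 from limma) and 0.85 for Akr1b8 (adjusted p = 0.898 from limma). Neither passed, nor did any other probe set of these genes, with adjusted p of up to 0.992.

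Spread within the groups also differed between genes. The SD of the inactivated group was 5.84 times that of the controls for Aldh3a1, 5.18 times for Aldh1a1 and 4.33 times for Aldh3a2, but 0.891 times for Akr1b8. This comparison of spreads was chosen after the values were seen and was not tested.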
